A study of Mus musculus with 29 samples.

Results

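The immunity-related GTPases (IRG) are a family of interferon-induced proteins that defend mouse cells against intracellular pathogens. The 8 members named in the count table as Irgm1, Irgm2, Igtp, Iigp1, Tgtp1, Tgtp2, Ifi47 and Gm4841 were taken by gene symbol, 8 of 28229 genes, and all 8 passed the filter on low counts. They were followed in NMM cells, a mouse melanoma line with mutant NRAS, through bulk sequencing of mRNA in 29 libraries.

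Every culture received a first stimulus for 2, 6, 12 or 24 h, was washed with PBS and then received a second stimulus for 24 h. The groups, named by first then second stimulus, were TGFβ then IFNγ, IFNγ then TGFβ, IFNγ then medium, medium then IFNγ, TGFβ then medium, medium then TGFβ, and medium then medium, called medium alone. Each of these 7 groups held 4 libraries, 1 for each length of the first stimulus, and an eighth group held 1 library given medium for 24 h and then a mix of both cytokines. IFNγ was used at 100 ng/ml and TGFβ at 10 ng/ml, also in the mix. No group had a second library at the same length, so the spread within a group includes any effect of that length and of the total culture time. Nothing in the labels says that libraries came from separate cultures, and p-values measure the spread between these libraries, which may be in part technical. Each gene had 1 estimate of that spread from all 29 libraries, so the SE of a comparison is not the spread within the groups compared.

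IRG proteins are dynamin-like GTPases that fall into regulators and effectors. The regulators Irgm1, Irgm2 and Igtp (also Irgm3), which carry a GMS motif in the nucleotide-binding loop, sit on the cell's own membranes and hold the effectors inactive. The effectors, among them Iigp1 (Irga6), Tgtp1 and Tgtp2 (Irgb6) and Ifi47 (Irgd), carry the canonical GKS motif, load onto vacuoles around pathogens such as Toxoplasma gondii and disrupt them. IFNγ acts through its receptor and the kinases JAK1 and JAK2 on genes with GAS elements, while complexes with STAT2 and IRF9, and the factor IRF1, bind ISRE-type elements. TGFβ signals through SMAD proteins.

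The promoters of 6 members, all on chromosome 11, were matched by symbol in RefSeq (GRCm38.p6, 250 bases before to 50 after the start). They were searched on both strands for GAS, spelled TTCNNNGAA, and ISRE, spelled as GAAA and GAAA with any 2 bases between them. The stretches that hold matches are shown 5′ to 3′ along the gene, because these motifs are the textbook route from IFNγ to this family. Capitals mark the motif letters, with GAS left of ISRE where both are present, and in Irgm1 a pair of overlapping ISRE matches.
Irgm1: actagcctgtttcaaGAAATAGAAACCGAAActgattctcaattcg
Irgm2: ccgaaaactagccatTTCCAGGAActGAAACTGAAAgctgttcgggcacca
Igtp: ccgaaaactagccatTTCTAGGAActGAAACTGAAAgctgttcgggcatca
Tgtp1: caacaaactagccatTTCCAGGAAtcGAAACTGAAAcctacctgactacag
Tgtp2: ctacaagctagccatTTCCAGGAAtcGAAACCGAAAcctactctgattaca

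The Irgm1 stretch lies at chr11:48871420-48871465 on the minus strand, Irgm2 at chr11:58214887-58214937 on the plus strand, Igtp at chr11:58199496-58199546 on the plus strand, Tgtp1 at chr11:48992299-48992349 on the minus strand and Tgtp2 at chr11:49064258-49064308 on the minus strand. In Irgm2, Igtp, Tgtp1 and Tgtp2 a single GAS match stands immediately upstream of a single ISRE match, 4 of the 6 promoters with both. ISRE was present in 5 of 6 and GAS in 4 of 6. Ifi47 had neither in this window, so these letters are not in it. Over 32817 promoter windows of the same length, 8.29% held GAS, 3.43% held ISRE and 0.451% held both. The whole windows of Irgm2 and Igtp were identical at 82.3% of positions and those of Tgtp1 and Tgtp2 at 74.7%. A match is a description of letters, not of a factor bound there.

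The genes lie in 2 places of chromosome 11 and on chromosome 18, with the same coordinates in the GENCODE M21 annotation of GRCm38. Irgm1 lies at 48861968 to 48871683 on the minus strand of chromosome 11. Tgtp1 (48985327 to 48994172, minus), Tgtp2 (49057194 to 49064206, minus) and Ifi47 (49076587 to 49096974, plus) follow it on that chromosome. Igtp (58199556 to 58207591) and Irgm2 (58199618 to 58222782) both run along its plus strand and share 162 exonic bases on that strand, 8.01% of the Igtp exons and 4.39% of the Irgm2 exons. RefSeq places the starts of Irgm1, Irgm2 and Tgtp1 inside the genes as annotated here, so that their whole promoter windows lie within these genes. Iigp1 (60376027 to 60392634, plus) and Gm4841 (60268305 to 60273272, minus), a predicted gene, lie on chromosome 18. Of the 50-base words in the transcripts of Tgtp1, 79.4% also occur in Tgtp2, and of those in Tgtp2, 85.8% occur in Tgtp1. The split of reads between Tgtp1 and Tgtp2 is therefore uncertain, and their sum was also tested. For Igtp 11.8% of words were shared with other genes, for Gm4841 9.42%, for Irgm2 7.77%, and for Ifi47, Iigp1 and Irgm1 at most 2.54%.

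Library totals ran between 17179530 and 23668015 counts, and mitochondrial genes took 0.596% to 1.31% of them. The medium-alone library of 6 h stood apart from the other 3 of its group, with an SD of its log2 differences from them of 0.596, against 0.320 to 0.361 for those 3. It was the lowest of the 4 medium-alone libraries for all 8 members, and without it the counts of members called against medium alone were 8 higher after medium then IFNγ, 8 lower after TGFβ then medium and 8 lower after medium then TGFβ. Of 8 listed melanocyte genes 4 were analysed: Mitf reached 8.40 to 20.2 CPM (counts scaled to the library size) and Gpnmb 26.4 to 276 CPM, while Sox10 reached at most 0.135 and Pmel at most 0.444 CPM, so the defining genes Sox10 and Pmel were near 0 in cells labelled melanoma. Tyr, Dct, Tyrp1 and Mlana had no row among the 28229 genes. The same held for the leukocyte genes Cd3e, Itgam, Adgre1 and Cd8a. Of 8 listed leukocyte genes 4 were analysed, among them Ptprc at most 0.172 CPM, Cd68 at 2.84 to 6.18 CPM and Cd14 at 17.1 to 76.4 CPM. The TGFβ treatment was visible in its textbook targets: Mmp12, a metalloelastase, averaged 20.8 ± 1.60 CPM after medium then TGFβ and 2.21 ± 1.72 CPM in medium alone (SD, n = 4 each).

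Set side by side per length, as RPKM (counts scaled by exon length and library size, which alone allows levels of different genes to be compared), Iigp1 was the most abundant member after medium then IFNγ, at 370 ± 25.0 RPKM, and Igtp followed at 284 ± 4.38 RPKM (SD, n = 4 each). Irgm1 stood at 194 ± 5.10, Gm4841 at 121 ± 9.95, Irgm2 at 101 ± 10.9, Tgtp2 at 79.6 ± 4.45, Ifi47 at 51.4 ± 5.62 and Tgtp1 at 39.0 ± 1.2 RPKM in that group. Of the 50-base words of Tgtp1 and Tgtp2, 81.2% and 86.6% occur in other genes, and how such reads were counted is not given. The places of Tgtp1 and Tgtp2 in the order, here and in medium alone, are therefore uncertain. The ranges of Gm4841 and Irgm2 did not overlap (112 to 132 and 85.8 to 111 RPKM), but their edges were close. In medium alone the order differed, with Irgm1 at 58.6 ± 7.57 and Iigp1 at 53.4 ± 9.36 RPKM overlapping at the top and Tgtp1 at 2.22 ± 0.372 and Gm4841 at 1.31 ± 0.430 RPKM at the bottom, where every Tgtp1 library lay above every Gm4841 library. The 8 genes together took 0.383% ± 0.0434 of all counts after TGFβ then IFNγ, 0.0590% ± 0.0186 after IFNγ then TGFβ, 0.0854% ± 0.0199 after IFNγ then medium, 0.488% ± 0.0120 after medium then IFNγ, 0.0249% ± 0.0270 after TGFβ then medium, 0.0354% ± 0.0230 after medium then TGFβ and 0.0905% ± 0.0146 in medium alone (SD, n = 4 each), and 0.439% in the mix library.

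**Figure D1:**
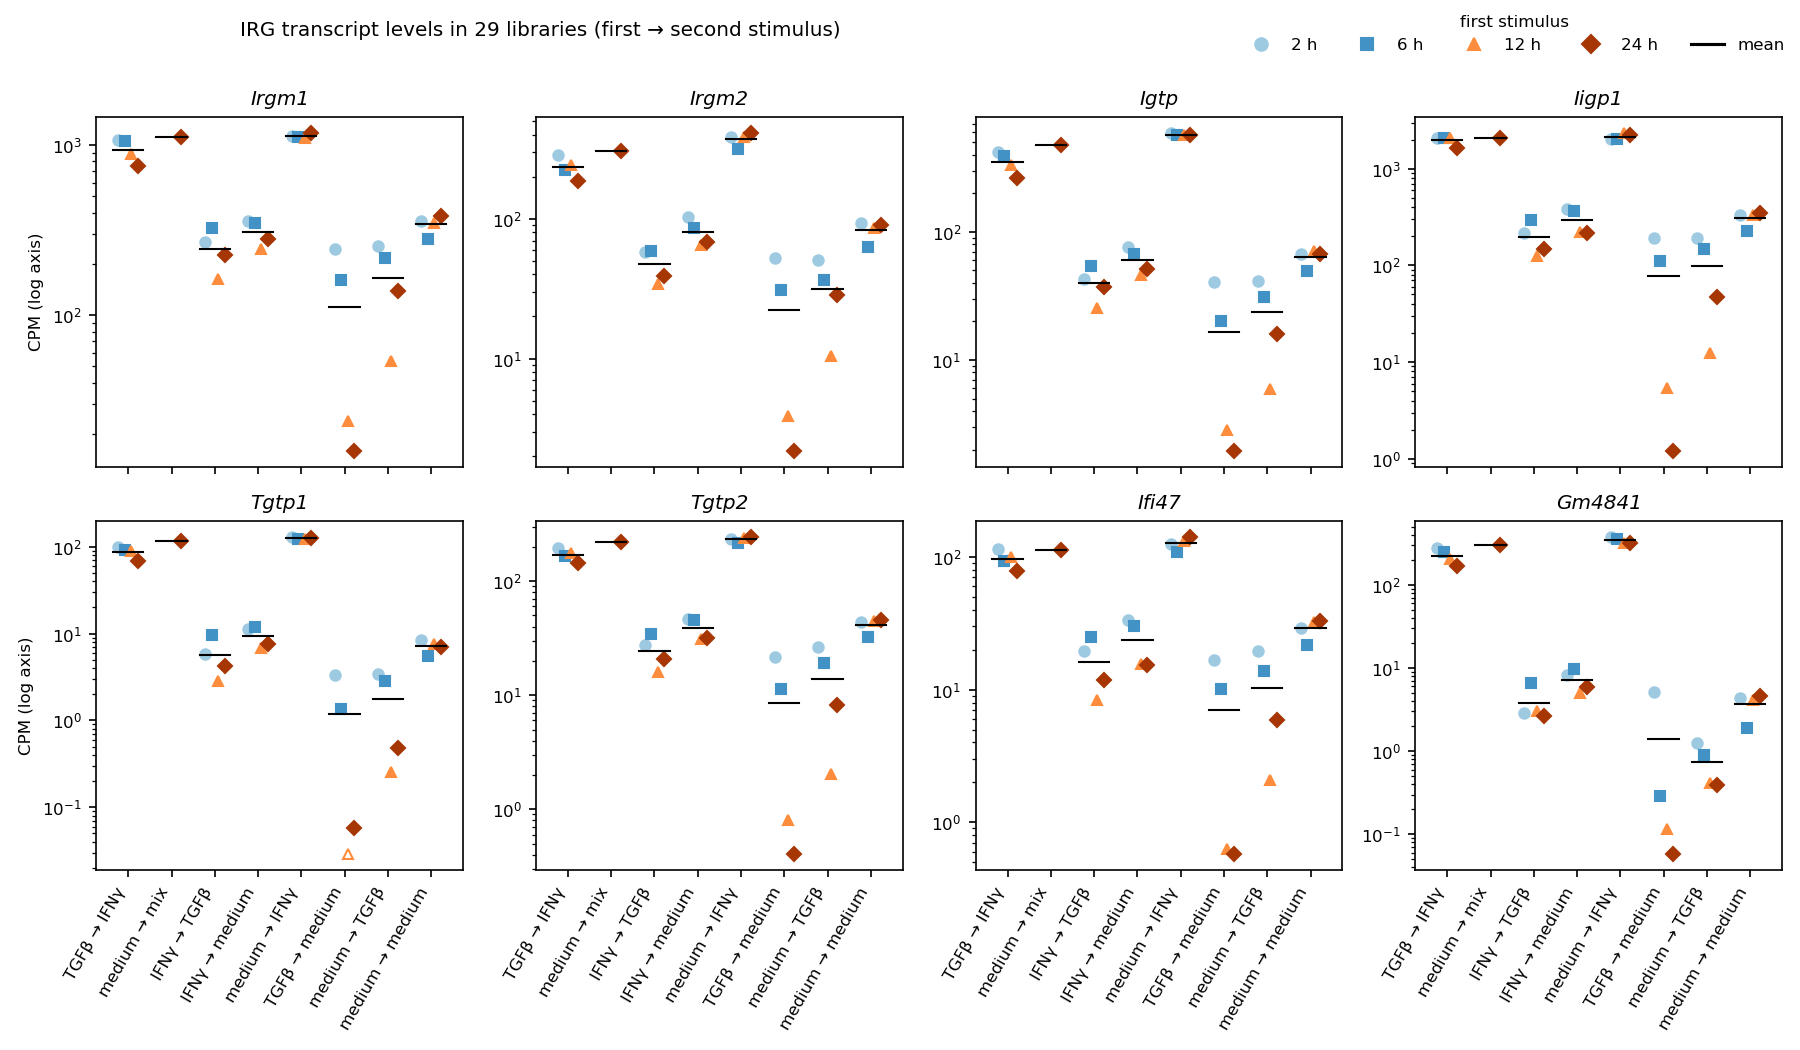
CPM of each IRG gene on a log axis, by group on the x axis (first → second stimulus), with 1 point per library, its shape and colour giving the length of the first stimulus, and a bar at the group mean. The open symbol for Tgtp1 marks a library with 0 reads, drawn at the foot of the panel. The groups that ended in IFNγ and the mix library lie above all other groups for all 8 genes. The 12 h and 24 h libraries of TGFβ then medium lie at the foot of every panel.

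Across the 7 groups of 4, medium then IFNγ had the highest mean for all 8 members and TGFβ then IFNγ the next, and the ranges of these neighbours overlapped for Iigp1 and Ifi47 and were separate for the other 6. A gap with no overlap followed for every member. Below it, the other 5 groups overlapped with their neighbours in the order of means, except that IFNγ then medium and IFNγ then TGFβ were separate for Irgm2. Next below the IFNγ-last groups stood medium alone for 6 members, and IFNγ then medium for Tgtp1 and Gm4841.

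IFNγ raised the whole family. All 8 members were higher after medium then IFNγ than in medium alone, among 22.7% of the 14935 genes tested that were called higher (edgeR quasi-likelihood test, Benjamini-Hochberg adjusted p below 0.05, here and below). The median log2 fold change of the 8 was 2.64, beside -0.01 over all genes tested. For all 8 the libraries of both groups did not overlap, while 18.1% of all genes were higher with no overlap. As in any bulk measure, more cells expressing a gene and more RNA per cell cannot be told apart. The comparisons with medium alone share those 4 libraries.

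Among the regulators, Irgm1 had 1121, 1111, 1102 and 1168 CPM after medium then IFNγ (2, 6, 12 and 24 h), against 357, 278, 348 and 380 CPM in medium alone. These groups did not overlap, and the fold of 3.27 (log2 1.71 ± 0.45 SE, adjusted p = 0.00374) was the smallest of the family. Irgm2 averaged 375 ± 40.2 CPM after medium then IFNγ and 82.7 ± 13.8 CPM in medium alone (SD, n = 4 each; adjusted p = 0.000387). Igtp had 588, 571, 568 and 571 CPM after medium then IFNγ, against 67.2, 49.9, 70.8 and 67.2 CPM in medium alone. Igtp thus varied little between IFNγ libraries, and its fold of 8.88 (log2 3.15 ± 0.46, adjusted p = 9.42e-06) was the largest of the 3 regulators.

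Among the effectors, Iigp1, which oligomerises on the vacuole membrane, had 2023, 2039, 2320 and 2229 CPM after medium then IFNγ, against 332, 229, 335 and 346 CPM in medium alone, a fold of 6.88 (log2 2.78 ± 0.72, adjusted p = 0.00326). Tgtp1 averaged 125 ± 3.84 CPM after medium then IFNγ and 7.12 ± 1.19 CPM in medium alone (SD, n = 4 each), a fold of 17.7 (adjusted p = 5.3e-09). Its near-copy Tgtp2 averaged 234 ± 13.1 CPM after medium then IFNγ and 41.6 ± 6.2 CPM in medium alone, a fold of 5.63 (adjusted p = 0.000175). Both folds depend on how reads were split between the 2 copies. Their summed counts had a log2 fold change of 2.88 and were called higher. Ifi47 averaged 127 ± 13.9 CPM after medium then IFNγ and 29.1 ± 5.16 CPM in medium alone, a fold of 4.38 (adjusted p = 0.000428). Gm4841 showed the widest change, with 375, 359, 321 and 319 CPM after medium then IFNγ, against 4.30, 1.91, 4.14 and 4.54 CPM in medium alone, a fold of 91.8 (log2 6.52 ± 0.42, adjusted p = 9.61e-11). The 4 folds of Gm4841 at matched lengths ran from 70.2 to 188, the highest at 6 h, where the medium library that stood apart is the denominator.

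Other large GTPases known to be induced by interferon were raised as well. Of 12 further IRG and related genes, 10 were tested, 9 rose after medium then IFNγ and 1 fell, with a list median log2 fold change of 2.13. The most raised were Gm12185 (log2 5.65 ± 0.46, adjusted p = 2.8e-09), which shares 223 exonic bases with Tgtp1, and Gm12250 (log2 5.10 ± 0.47, adjusted p = 2.06e-08). Irgq, a divergent member of the family, fell (log2 -0.42 ± 0.11, adjusted p = 0.00346). Of 11 guanylate-binding proteins, larger GTPases of the same defence, 10 were tested and 9 rose, with a median of 2.59. Gbp4 rose most (log2 6.55 ± 0.43, adjusted p = 1.26e-10), followed by Gbp10 (log2 4.97 ± 0.31, adjusted p = 6.13e-11).

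The IFNγ pathway from receptor to transcription moved in part. Of 15 listed genes 14 were tested, 8 rose and 2 fell, with a median of 0.80. Irf1, a transcription factor that IFNγ induces directly, averaged 505 ± 28.3 CPM after medium then IFNγ and 38.5 ± 12.6 CPM in medium alone (log2 3.72 ± 0.28, adjusted p = 9.58e-10), and Irf8 rose too (log2 2.35 ± 0.12, adjusted p = 1.16e-12). The receptor chains Ifngr2 (log2 -0.50 ± 0.08, adjusted p = 2.32e-05) and Ifngr1 (log2 -0.27 ± 0.08, adjusted p = 0.00777) fell. Of the 10 genes of the ATG8 conjugation machinery, on which loading of IRG proteins onto vacuoles depends, 1 rose and 3 fell (median -0.07). Of all genes 22.7% were called higher and 21.2% lower, so these counts do not set the list apart. Atg16l1 rose (log2 0.22 ± 0.08, adjusted p = 0.0342) and Map1lc3b fell (log2 -0.53 ± 0.08, adjusted p = 1.88e-05). Of 7 ubiquitin and adaptor genes of the vacuole, 6 were tested and 3 rose (median 0.30), among them Trim21 (log2 0.95 ± 0.36, adjusted p = 0.0329). Markers of fibroblasts and endothelium moved with IFNγ as well: 4 of 5 tested fell and none rose, beside 21.2% of all genes called lower. Their sum of 6 genes ran from 199 to 233 CPM after medium then IFNγ and from 583 to 1941 CPM in medium alone. Col3a1 and Dcn varied widely in medium alone, at 742 ± 480 and 182 ± 186 CPM (SD, n = 4 each). Over all libraries Col3a1 had 80.4 to 1461 CPM, Dcn 26.0 to 461, Pdgfra 6.12 to 16.7 and Cdh5 5.45 to 24.5 CPM. Col1a1 and Pecam1 reached at most 0.751 and 0.279 CPM in any library. The part of these markers in the results on the IRG genes was not tested.

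**Figure D2:**
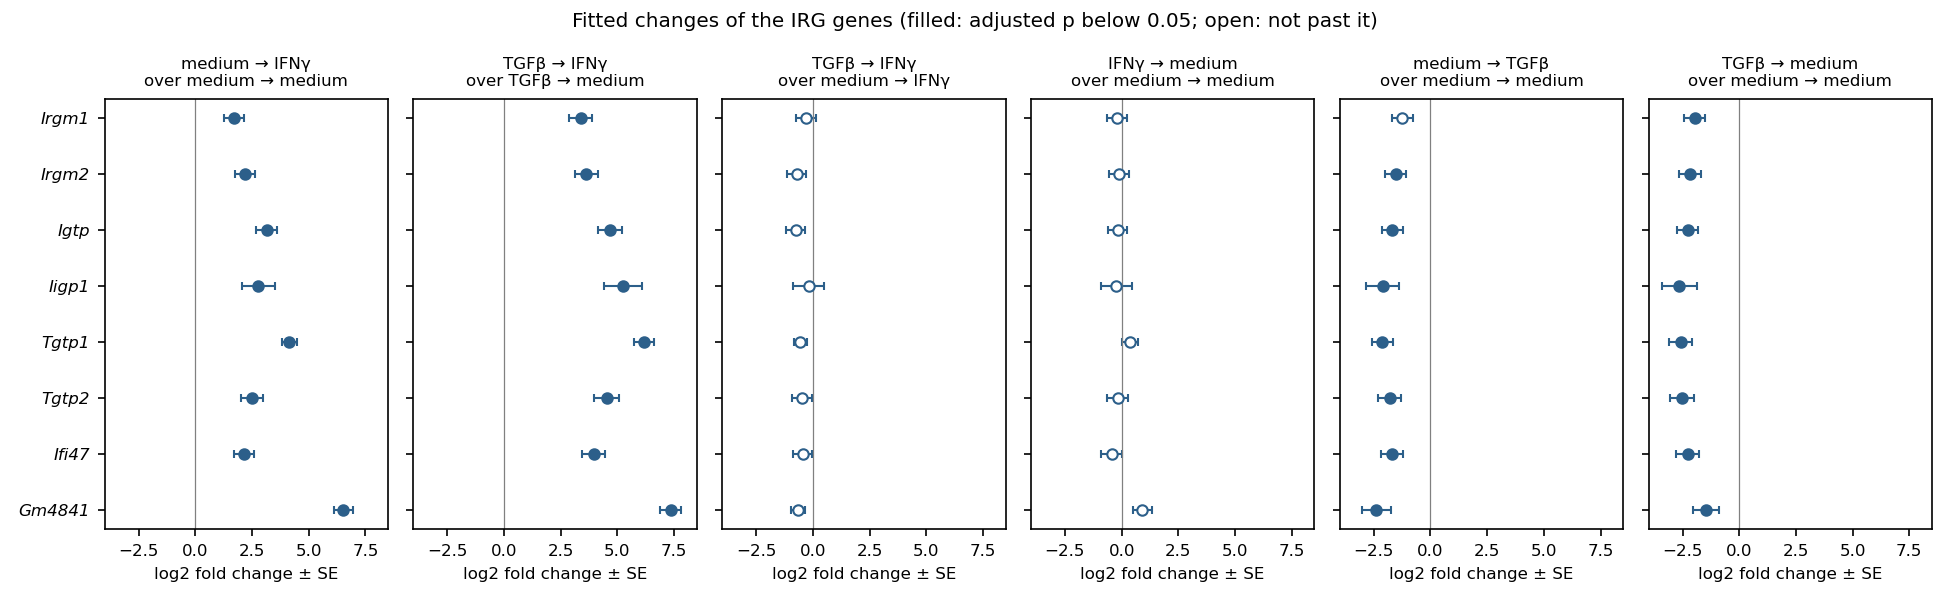
Fitted log2 fold change of each IRG gene (x axis, bars are the SE) in 6 comparisons named above the panels, from the fit over 29 libraries; filled points have an adjusted p below 0.05. All 8 genes lie right of 0 in both comparisons that add IFNγ last, and left of 0 after TGFβ then medium.

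IFNγ given first and then withdrawn for 24 h left no member called against medium. After IFNγ then medium, 0 of 8 members were called against medium alone (edgeR), where 0.79% of all genes were called in either direction. At an unadjusted p below 0.05 the edgeR count was 1 member, Gm4841, among 2356 of 14935 genes, and DESeq2 called 0. Log2 fold changes ran from -0.45 (Ifi47) to 0.91 (Gm4841). Gm4841 had 8.13, 9.82, 5.00 and 5.94 CPM after IFNγ then medium, against 4.30, 1.91, 4.14 and 4.54 CPM in medium alone, groups that did not overlap (log2 0.91 ± 0.43, 95% interval 0.0046 to 1.82, adjusted p = 0.307). Of all genes, 2.58% were higher with no overlap in this comparison. Iigp1 had 383, 363, 223 and 216 CPM after IFNγ then medium, and 332, 229, 335 and 346 CPM in medium alone, so that the libraries of 2 h and 6 h lay above their medium counterparts and those of 12 h and 24 h below. The intervals of the other 7 log2 fold changes all included 0, and the widest reached from -1.68 to 1.19 (Iigp1). Set against medium then IFNγ, IFNγ then medium was lower for 8 of 8 members (20.8% of all genes were lower), by log2 values from -1.93 (Irgm1) to -5.61 (Gm4841).

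TGFβ alone lowered IRG transcripts. After TGFβ then medium, 8 of 8 members were lower than in medium alone, where 14.5% of all genes were lower, with a median log2 fold change of -2.28 beside -0.0002 over all genes. After medium then TGFβ, 7 of 8 were lower, where 11.6% of all genes were lower, with a median of -1.76. Irgm1 missed the threshold there (log2 -1.24 ± 0.45, adjusted p = 0.0505), and Gm4841 passed it narrowly after TGFβ then medium (log2 -1.46 ± 0.55, adjusted p = 0.0499). The value of Gm4841 was -4.47 without the 2 h library of TGFβ then medium, and its call was lost without the 6, 12 or 24 h library of that group or the 2, 12 or 24 h library of medium alone, and without all libraries of 6, 12 or 24 h. In a fit of only the groups compared, the counts were 0 of 8 after TGFβ then medium (1381 genes called in either direction) and 1 of 8 after medium then TGFβ (1047 genes). Without the replicate block they were 6 (2615 genes) and 2 (1726 genes). After TGFβ then medium 6 of 8 were called without all libraries of 12 h, without all of 24 h, or without that group's 12 h and 24 h libraries, an alternative chosen after seeing the data, under which Gm4841 was not called. After medium then TGFβ 1 was called without all libraries of 12 h, 2 without all of 24 h, and 4 without that group's 12 h library.

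The 4 libraries of TGFβ then medium differed widely among themselves. Irgm1 had 245, 161, 23.9 and 15.9 CPM after TGFβ for 2, 6, 12 and 24 h then medium, against 357, 278, 348 and 380 CPM in medium alone. The first 2 lengths lay within a factor of 1.72 of medium, and the last 2 were 14.5-fold and 23.9-fold lower. Iigp1 had 192, 110, 5.39 and 1.21 CPM after TGFβ then medium, against 332, 229, 335 and 346 CPM in medium alone. Iigp1 at 12 h and 24 h, from 94 and 21 reads, was 62.2-fold and 287-fold below the medium library of the same length. Igtp had 40.8, 20.2, 2.87 and 1.95 CPM and Irgm2 52.5, 30.8, 3.90 and 2.18 CPM after TGFβ then medium. Tgtp2 had 21.6, 11.4, 0.803 and 0.402 CPM, and Ifi47 16.7, 10.2, 0.631 and 0.574 CPM in the same libraries.

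Tgtp1 had 67, 28, 0 and 1 reads after TGFβ then medium, against 183, 96, 154 and 126 reads in medium alone. A count of 0 at 12 h allows up to 3 reads, or 0.172 CPM, and Tgtp1 was thus at least 44.2-fold lower than the 7.60 CPM of medium alone at that length. Gm4841 had 102, 6, 2 and 1 reads after TGFβ then medium, against 94, 33, 84 and 82 reads in medium alone. Gm4841 at 2 h, at 5.12 CPM, was the one library of the group that was not below its medium counterpart (4.30 CPM). The other 7 members were below medium at all 4 lengths, with no overlap of the groups, and 9.65% of all genes were lower with no overlap.

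With TGFβ second, the values of 7 members did not follow the length of the preceding medium in one direction, and those of Gm4841 were lower at each longer length. Irgm1 had 255, 216, 54.0 and 138 CPM after medium then TGFβ, and Iigp1 had 191, 147, 12.4 and 46.9 CPM. For Irgm1, Irgm2, Igtp, Iigp1, Tgtp1, Tgtp2 and Ifi47 the library of 12 h was the lowest and that of 24 h lay between it and the 6 h library. Gm4841 had 1.25, 0.893, 0.410 and 0.388 CPM, from 23, 16, 8 and 8 reads. All 8 members had all 4 libraries below every medium-alone library, while 8.42% of all genes were lower with no overlap. Between TGFβ then medium and medium then TGFβ, edgeR called 0 of 8 members and 0 of 14935 genes. At an unadjusted p below 0.05 the edgeR counts were 0 members and 928 genes, and DESeq2 called 0 members and 33 genes.

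**Figure D3:**
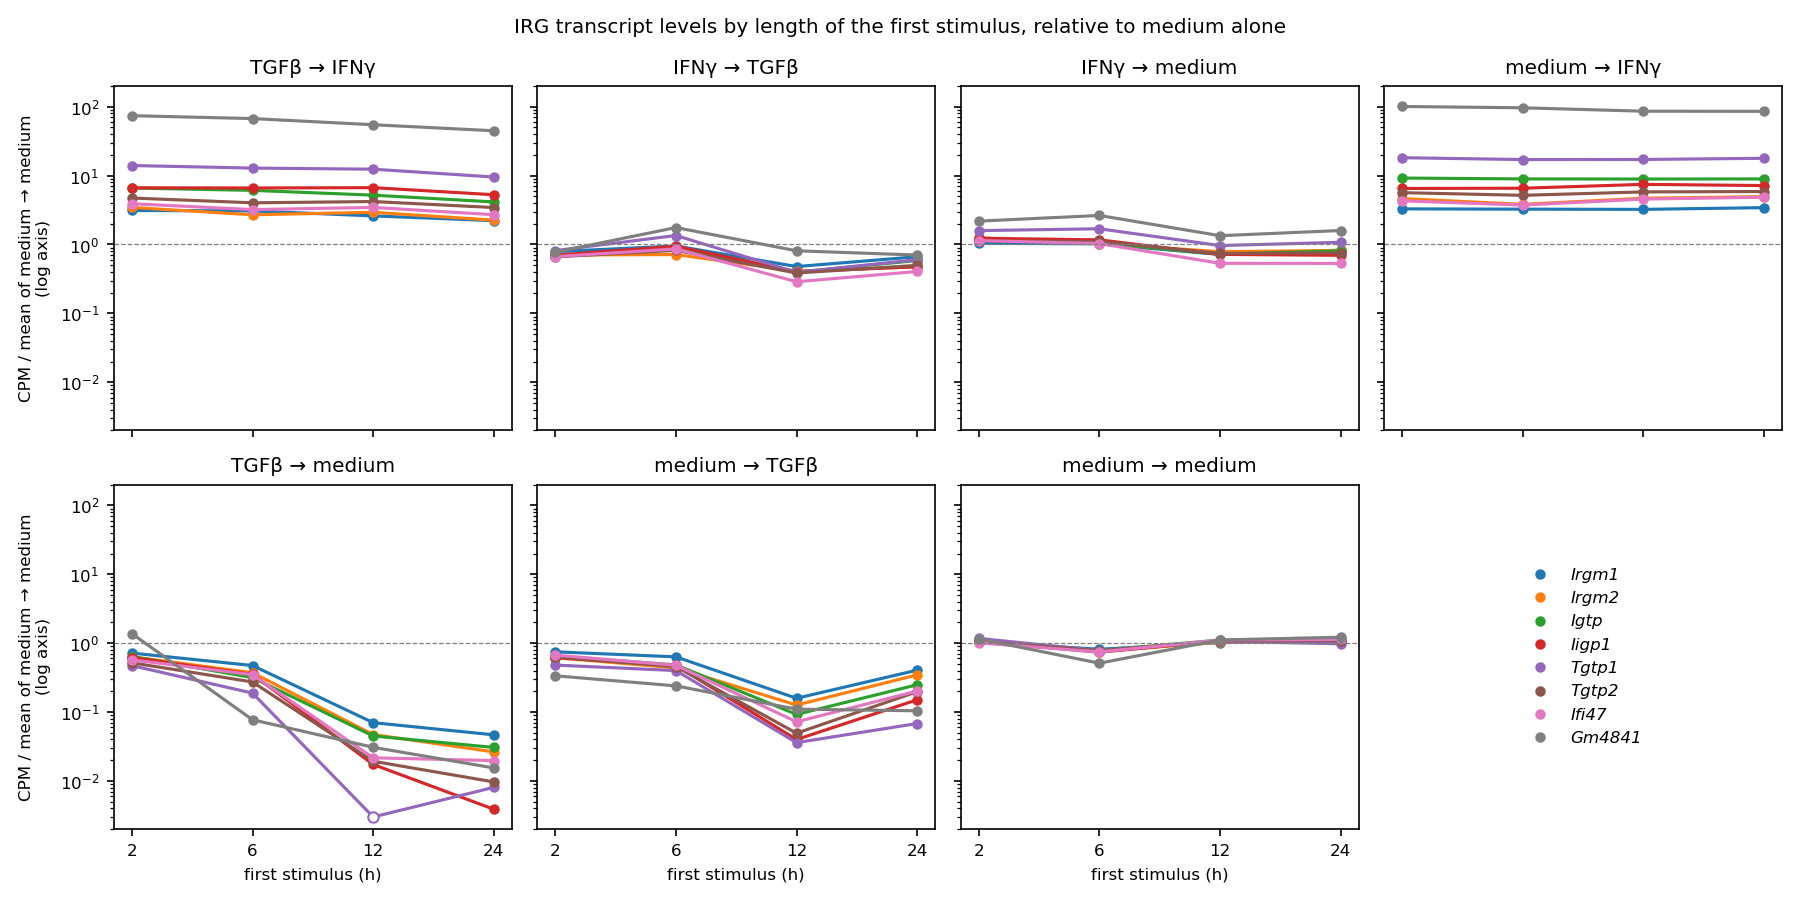
CPM of each IRG gene divided by its mean in medium alone (y axis, log) against the length of the first stimulus in h (x axis), 1 panel per group and 1 line per gene; the open symbol is Tgtp1 with 0 reads, drawn at the foot. After TGFβ then medium all 8 lines lie far below medium at 12 h and 24 h, and after medium then TGFβ the lines of 7 genes are lowest at 12 h.

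The trend with length was tested as a slope on the log2 scale per doubling of the first stimulus. In TGFβ then medium, 8 of 8 members had a negative slope that passed the threshold, among 1.23% of all genes. Slopes ran from -1.22 ± 0.19 for Irgm1 (adjusted p = 0.0043) to -2.23 ± 0.29 for Gm4841 (adjusted p = 0.0043), and the highest adjusted p was 0.0241 (Tgtp1). In the other 6 groups of 4, edgeR called 0 of 8 slopes, where 0.208% of all genes were called in TGFβ then IFNγ, 0.0067% in IFNγ then TGFβ and 0% in the other 4; at an unadjusted p below 0.05 these were 7 members in medium then TGFβ, where 1433 of 14935 genes were, and 0 in the remaining 5 groups, and DESeq2 was not run on slopes. Against the slope of medium alone, 1 of 8 passed in TGFβ then medium, Gm4841 (-2.28 ± 0.34, adjusted p = 0.0399), among 0.0067% of all genes, and all 8 members and 803 of 14935 genes did at an unadjusted p below 0.05. Without the 24 h library of TGFβ then medium 0 of 8 slopes passed, and without its 12 h library 4 of 8. Against medium, the count was 0 without the 12 h or the 24 h library of either group, 6 without the 2 h and 8 without the 6 h library of TGFβ then medium, and 7 without the 2 h library of medium alone.

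Genes of interferon signalling were lower in the same libraries. Of the 14 genes tested between receptor and transcription, 8 fell after TGFβ then medium and none rose (median -0.41). Stat2, a factor of the ISRE-binding complex, had 206, 194, 22.9 and 15.6 CPM after TGFβ then medium, against 302, 248, 312 and 324 CPM in medium alone (log2 -1.89 ± 0.45, adjusted p = 0.00282). As for the IRG genes, the libraries of 12 h and 24 h were the low ones.

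Irf9, Jak1, Jak2 and the per-library values of Irf1 were picked after they were seen. Irf9, the DNA-binding partner of STAT2, had 123, 104, 37.6 and 18.2 CPM after TGFβ then medium and 136, 119, 136 and 144 CPM in medium alone (log2 -1.07 ± 0.29, adjusted p = 0.00751). Jak1, the receptor-bound kinase, had 167, 173, 176 and 166 CPM after TGFβ then medium and 168, 186, 170 and 163 CPM in medium alone (log2 -0.01, adjusted p = 0.91), and Jak2, its partner on the receptor, had 82.4, 70.9, 75.5 and 68.7 CPM after TGFβ then medium and 77.8, 61.5, 83.3 and 87.2 CPM in medium alone (adjusted p = 0.668). Irf1 had 39.3, 22.8, 11.9 and 9.13 CPM after TGFβ then medium, against 47.6, 20.0, 41.6 and 44.7 CPM in medium alone (log2 -0.98, adjusted p = 0.00796).

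Related GTPases fell too: 6 of 10 tested IRG-related genes after TGFβ then medium (median -1.42), with Gm12250 (log2 -2.30 ± 0.66, adjusted p = 0.0111) and F830016B08Rik (log2 -2.25 ± 0.46, adjusted p = 0.000819) the lowest, and 9 of 10 guanylate-binding proteins (median -2.22), with Gbp8 the lowest (log2 -2.60 ± 0.41, adjusted p = 6.72e-05). Of the ATG8 machinery 4 of 10 fell (median -0.11), by at most log2 0.35 in size (Gabarap, log2 -0.35 ± 0.11, adjusted p = 0.0159), and of the vacuole ubiquitin and adaptor genes 3 of 6 (median -0.47). In this comparison 14.5% of all genes were called lower. Of 6 TGFβ targets 5 rose and none fell (median 1.05), Mmp12 most (log2 3.67 ± 0.32, adjusted p = 3.48e-08). Among markers of fibroblasts and endothelium Col3a1 fell (log2 -0.85 ± 0.25, adjusted p = 0.0111) and Cdh5 rose (log2 1.00 ± 0.17, adjusted p = 0.00017). Col1a1, Dcn and Pdgfra were not called. Cd14 among the leukocyte genes fell (log2 -0.79 ± 0.17, adjusted p = 0.00109), the summed leukocyte list running from 20.4 to 56.4 CPM after TGFβ then medium and from 52.8 to 82.0 CPM in medium alone, and both tested melanocyte genes fell, the sum of the 4 analysed running from 37.6 to 84.2 CPM after TGFβ then medium and from 164 to 290.3 CPM in medium alone. Their part in the results on the IRG genes was not tested.

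**Figure D4:**
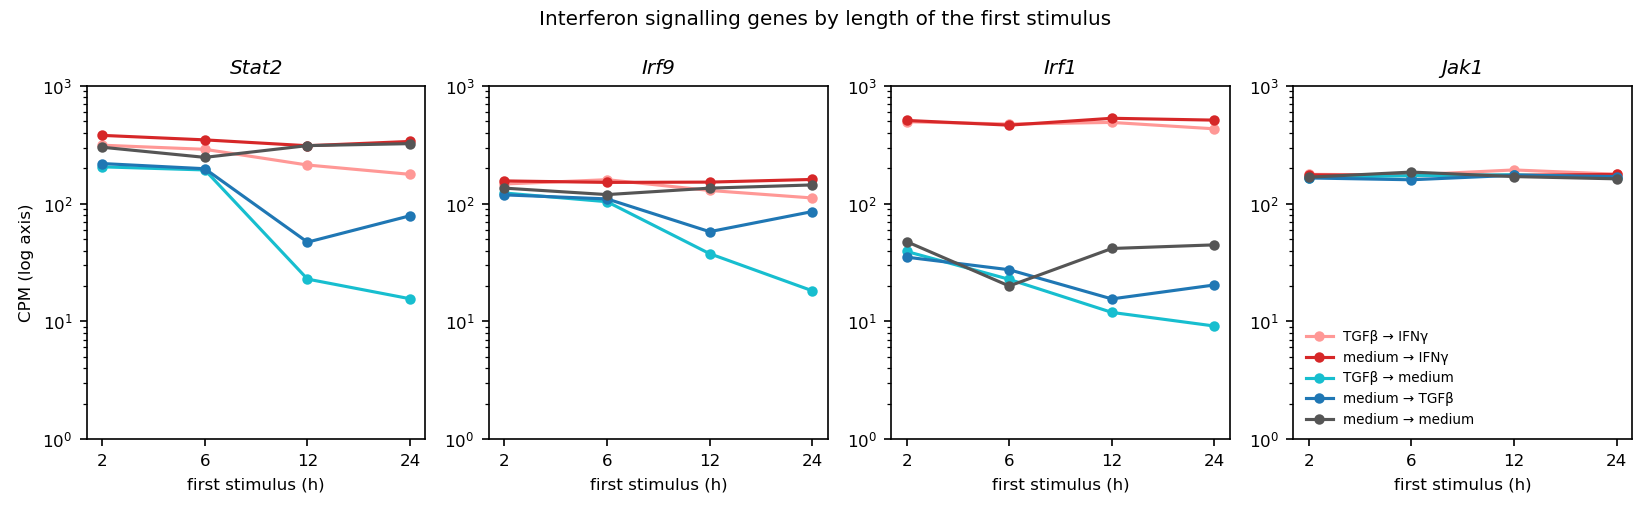
CPM (y axis, log) of 4 interferon signalling genes against the length of the first stimulus in h (x axis), 1 point per library and 1 line per group. Stat2 and Irf9 in TGFβ then medium drop at 12 h and 24 h, Irf1 is set high by IFNγ with or without TGFβ before it, and Jak1 stays between 159.7 and 194 CPM in these groups.

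Cells that had seen TGFβ still reached high IRG levels when IFNγ came next. After TGFβ then IFNγ, 8 of 8 members were higher than after TGFβ then medium, where 18.8% of all genes were higher, with log2 fold changes from 3.37 (Irgm1) to 7.34 (Gm4841) and a median of 4.59. Irgm1 had 1062, 1047, 886 and 756 CPM after TGFβ then IFNγ, against 245, 161, 23.9 and 15.9 CPM after TGFβ then medium (log2 3.37 ± 0.49, adjusted p = 1.46e-05). Iigp1 had 2068, 2056, 2077 and 1640.2 CPM after TGFβ then IFNγ, against 192, 110, 5.39 and 1.21 CPM after TGFβ then medium (log2 5.23 ± 0.83, adjusted p = 4e-05). At 24 h of TGFβ, the change of Iigp1 under IFNγ was thus 1359.9-fold, from the library with 21 reads. All 10 guanylate-binding proteins tested and 11 of 14 pathway genes rose in this comparison, led by Gbp4 (log2 7.53 ± 0.48, adjusted p = 7.83e-11) and Irf1 (log2 4.61 ± 0.29, adjusted p = 7.38e-11). Of the fibroblast and endothelium markers 3 of 5 tested fell, and their sum of 6 genes ran from 158 to 217 CPM after TGFβ then IFNγ and from 373 to 701 CPM after TGFβ then medium. Their part in the result was not tested.

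The level under IFNγ with and without earlier TGFβ was compared next. Igtp had 421, 389, 332 and 264 CPM after TGFβ then IFNγ, against 588, 571, 568 and 571 CPM after medium then IFNγ. Irgm2 had 285, 223, 243 and 187 CPM after TGFβ then IFNγ, against 384, 317, 388 and 409 CPM after medium then IFNγ. Gm4841 had 276, 250.5, 204 and 167 CPM after TGFβ then IFNγ, against 375, 359, 321 and 319 CPM after medium then IFNγ. These 3 members, Irgm1, Tgtp1 and Tgtp2 did not overlap between the groups, 6 of 8, while 7.58% of all genes were lower with no overlap. The ratio at matched lengths was lowest at 24 h for all 8 members, from 0.456 (Irgm2) to 0.736 (Iigp1), and at 2 h it ran from 0.716 (Igtp) to 1.02 (Iigp1).

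None of these differences passed the test: edgeR called 0 of 8, where 15.8% of all genes were called in either direction, with log2 fold changes from -0.19 (Iigp1, 95% interval -1.61 to 1.23) to -0.76 (Igtp, -1.65 to 0.13). At an unadjusted p below 0.05 the edgeR count was 1, Gm4841, among 4342 of 14935 genes, and DESeq2 called 0. In a fit of only these groups, which leaves out the spread of the others, 6 of 8 were called lower, with 2136 genes called in either direction. The fit over 29 libraries called 2365 genes. Without all libraries of 2 h 1 of 8 was called lower, with 1578 genes called. Of related genes, 3 of 10 guanylate-binding proteins fell, among them Gbp10 (log2 -1.80 ± 0.24, adjusted p = 1.1e-05), as did Gm5431 of the IRG-related list (log2 -1.52 ± 0.39, adjusted p = 0.00886).

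The difference between the IFNγ response with and without TGFβ first was tested as an interaction. Its log2 values were positive for all 8 members, from 0.82 (Gm4841, but 3.83 without the 2 h library of TGFβ then medium) to 2.45 (Iigp1). A positive value means a larger fold of IFNγ over medium after TGFβ, not a higher level under IFNγ. For all 8 members TGFβ then IFNγ had a negative log2 fold change against medium then IFNγ (Irgm1 -0.31), none of them called. TGFβ then medium lay further below medium alone (Irgm1 -1.97). Over the alternatives the interaction went as low as 0.085 (Gm4841), 0.51 (Irgm2) and 0.64 (Igtp). The edgeR test called 0 of 8, where 0.395% of all genes were called, with 7 members and 1926 of 14935 genes at an unadjusted p below 0.05 and 0 members called by DESeq2. The lowest adjusted p was 0.135 (Tgtp1, log2 2.03 ± 0.59), and the intervals of all members but Gm4841 lay above 0. Without the 2 h library of TGFβ then medium 2 of 8 were called, and without all libraries of 2 h 1 of 8.

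The reverse order put IFNγ before TGFβ. Against medium then TGFβ, IFNγ then TGFβ had log2 fold changes from 0.66 (Irgm2) to 2.36 (Gm4841), with edgeR calling 0 of 8, where 0.0937% of all genes were called. At an unadjusted p below 0.05 there were 2, Tgtp1 and Gm4841, among 1727 of 14935 genes. DESeq2 called 1 member and 160 genes, and a fit of only these groups called 1 member and 73 genes. Gm4841 had 2.88, 6.55, 3.02 and 2.61 CPM after IFNγ then TGFβ, against 1.25, 0.893, 0.410 and 0.388 CPM after medium then TGFβ, with no overlap (adjusted p = 0.114), and 1.92% of all genes were higher with no overlap. Iigp1 had 218, 293, 125 and 147 CPM after IFNγ then TGFβ, against 191, 147, 12.4 and 46.9 CPM after medium then TGFβ, ratios between 1.14 at 2 h and 10.1 at 12 h. Without all libraries of 2 h, 1 of 8 was called.

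Against IFNγ then medium, IFNγ then TGFβ had log2 fold changes from -0.35 (Irgm1) to -0.94 (Gm4841). EdgeR called 0 of 8, where 7.26% of all genes were called, with 1 at an unadjusted p below 0.05 (Gm4841, among 2887 of 14935 genes) and 0 by DESeq2. All 8 members were lower at all 4 matched lengths, and Irgm2 was the one with no overlap, at 34.0 to 59.1 CPM after IFNγ then TGFβ and 65.1 to 104 CPM after IFNγ then medium, while 5.66% of all genes were lower with no overlap. In a fit of only these groups, which leaves out the spread of the others, all 8 were called lower, with 3177 genes called in either direction. The fit over 29 libraries called 1084 genes.

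With both cytokines at once there was 1 library. The mix library had 1109.7 CPM of Irgm1, 2085 of Iigp1, 478 of Igtp and 302 of Gm4841, against 1168, 2229, 571 and 319 CPM in the 24 h library of medium then IFNγ. All 8 members were lower in the mix library, with ratios between 0.751 (Irgm2) and 0.950 (Irgm1). In the fit, which lends the single library the spread of the other groups and includes a term for the length, edgeR called 0 of 8 members, where 2.24% of all genes were called, and DESeq2 0. No member had an unadjusted p below 0.05, the fitted log2 values lay between -0.08 and 0.33, and 95% intervals reached from -1.96 to 2.61 (Iigp1), so this single library leaves the difference unresolved; fitted values above 0 for 7 members go with raw ratios below 1.

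Across the 29 libraries the members had similar profiles, with Pearson correlations of their log2 CPM between 0.908 and 0.997. The libraries share cells, treatments and sequencing, and the groups fall into clusters, so these values are descriptive. The 6 other genes with the profile most like the mean of the 8 were F830016B08Rik (r = 0.993), Gbp7 (r = 0.992), Erap1, an aminopeptidase that trims peptides for MHC class I (r = 0.990), Gm8995 (r = 0.987), Gbp2 (r = 0.986) and Olfr56 (r = 0.984). Olfr56 shares 111 exonic bases with Ifi47 on the same strand, 4.49% of the Ifi47 exons.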

How the data were processed

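Total RNA of NMM cells was made into stranded mRNA libraries and sequenced, per the labels' protocols. The authors deposited 1 table of raw read counts per gene, with 29 columns and gene annotation. Reads were handled with HISAT against GRCm38, per the submitters' processing notes. Which program counted them, with which strand setting and gene models, is not given in the sources used here. No row lacked a gene name.

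Counts were tested with edgeR 4.0.16 (R 4.3.3) by quasi-likelihood with TMM scaling, after a filter on low counts (filterByExpr by group, minimum count 10), which left 14935 of 28229 genes. All 29 libraries entered 1 model with a term for each group and for the length of the first stimulus (18 residual degrees of freedom), and slopes on log2 length had a model of their own (14). P-values were adjusted over all genes tested by the Benjamini-Hochberg method, at 0.05. CPM used TMM library sizes; RPKM used exon union lengths from GENCODE M21. Intervals are 95% from the fit, and the floor for a count of 0 is 3 reads, for counting error only. DESeq2 1.42.0 and other settings were alternatives. The tests were checked on simulated data.

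Libraries with the same length of first stimulus were treated as a block, because same-numbered samples share that length; correlations of their deviations were all over 0.1 in the 5 comparisons between stimulated groups except IFNγ withdrawn, and ran from -0.041 to 0.233 in those with medium alone. No 2 libraries agreed within sampling noise (lowest chi-square per degree of freedom 3.73 over 42 pairs within groups). Genes and gene lists were chosen with earlier results of these data known. All 8 members were named in each comparison, along with up to 2 highest and 2 lowest called genes of each list and the 6 most similar genes. Values of some listed genes are not reported here.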

Additional observations from a re-analysis of the deposited data

Results flagged for a closer look

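Of 56 sets of 4 libraries (8 members in 7 groups), 7 held a library whose gap to its nearest neighbour took more of the whole range than Dixon's 95% limit allows. Chance alone gives about 1 in 20 for independent sets of like values. These sets are not independent, because the members have similar profiles in the same libraries. The 4 values of a set also differ in the length of the first stimulus, so that rate cannot be set against the 7. In medium alone the 6 h library was low for 3 members, with Iigp1 at 229.5 CPM, Tgtp2 at 32.3 CPM and Gm4841 at 1.91 CPM, and it is the library that stood apart over all genes. Gm4841 was high in the 2 h library of TGFβ then medium, at 5.12 CPM, and in the 6 h library of IFNγ then TGFβ, at 6.55 CPM. Igtp was high in the 2 h library of medium then IFNγ, at 587.6 CPM, above 568 to 571 CPM in the other 3. Iigp1 was low in the 24 h library of TGFβ then IFNγ, at 1640.2 CPM, below 2056 to 2077 CPM in the other 3.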

How the results depend on the processing

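Of 1915 alternative values for the members, 1735 kept direction and side of the threshold, 74 lost it, 64 gained it and 42 changed sign. The 8 members stayed called higher after medium then IFNγ and after TGFβ then IFNγ against TGFβ then medium in every alternative that kept Tgtp1 and Tgtp2 apart. The cause was not tested for any change below.

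Without the replicate block, 2 members were lower after medium then TGFβ and 6 after TGFβ then medium, and the mix library's log2 values changed sign (Irgm1 -0.0203, Igtp -0.26, Iigp1 -0.0462, Tgtp1 -0.10, Tgtp2 -0.079, Ifi47 -0.17, Gm4841 -0.19); genes called fell to 1726 for medium then TGFβ (3476 with the block), 2615 for TGFβ then medium (4325), 1232 for TGFβ before IFNγ (2365), 488 for TGFβ after IFNγ (1084), 16 for the interaction (59) and 1 for IFNγ before TGFβ (14). In fits of only the groups compared, members lower were 1 after medium then TGFβ, 0 after TGFβ then medium, 6 for TGFβ before IFNγ and 8 for TGFβ after IFNγ, and 1 was higher for IFNγ before TGFβ, with 1047, 1381, 2136, 3177 and 73 genes called, and 16 for the interaction.

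With no filter, members higher were 2 for IFNγ before TGFβ (93 genes) and 1 for the interaction (114), and members with lower slopes were 1 in medium then TGFβ and 8 in TGFβ then medium against medium (190 genes, 1 with the filter; 299 and 198 for its own slope). Linear hours also gave 8 against medium (145 genes). DESeq2 called 1 member higher and 160 genes for IFNγ before TGFβ and 225 for the interaction. Tgtp1 and Tgtp2 summed gave -0.10 after IFNγ then medium, where Tgtp1 alone had 0.37. Without TGFβ then medium of 12 h and 24 h, an alternative chosen after seeing the data, 1 member was lower for TGFβ before IFNγ, 6 members were lower and 1921 genes called for TGFβ then medium and 26 genes for the interaction, Igtp in the mix had -0.11, and TGFβ then medium against medium then TGFβ turned positive (Irgm1 0.16, Irgm2 0.26, Igtp 0.21, Iigp1 0.47, Tgtp1 0.26, Tgtp2 0.11, Ifi47 0.21).

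Leaving out 1 library or 1 length, members called ranged from 1 to 8 lower after medium then TGFβ, 6 to 8 lower after TGFβ then medium, 0 to 1 lower for TGFβ before IFNγ, 0 to 1 higher for IFNγ before TGFβ, 0 to 2 higher for the interaction, and 0 to 8 for the slope in TGFβ then medium, alone or against medium. Log2 values crossed 0 for IFNγ then medium (Irgm1 -0.42 to 0.0002, Irgm2 -0.28 to 0.0843, Igtp -0.37 to 0.0922, Iigp1 -0.50 to 0.0427, Tgtp2 -0.37 to 0.0381), TGFβ before IFNγ (Iigp1 -0.51 to 0.12), TGFβ then medium against medium then TGFβ (Tgtp1 -1.65 to 0.0087, Gm4841 -2.08 to 1.40) and the mix (Irgm2 -0.22 to 0.16, Igtp -0.14 to 0.18, Ifi47 -0.0629 to 0.41). Counts under about 10 reads, as for Tgtp1 and Gm4841 after long TGFβ, limit those ratios.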
